A study of Xenopus laevis with 6 samples.

Results

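Isolated common β-catenin regions are places on the Xenopus laevis chromosomes that both peak callers, MACS and HOMER, called in all 3 ChIP replicates, and that had no other such region within 50000 bp of either edge on the same chromosome. They were found by merging overlapping intervals of the authors' combined list and measuring the gap between region edges. Of the 717 common regions on the 18 chromosomes, 458 (63.9%) were isolated and 259 were clustered, meaning that another common region lay within 50000 bp. The number rested heavily on replicate 3. Common regions rebuilt without that replicate numbered 2439, of which 1265 (51.9%) were isolated, and 268 of the 458 were among them. Without the replicate 3 MACS list alone, 820 of 1441 were isolated. A further 51 common regions on unplaced scaffolds were not classed. The 3 ChIP libraries came from chromatin of whole embryos at stage 11.5 that had received 500 pg of triple FLAG-tagged β-catenin at the 2-cell stage, precipitated with a FLAG antibody. The 3 input libraries came from embryos treated the same way, and each is paired with 1 ChIP library in the names of the peak lists. No values of the inputs were used. All 6 libraries thus carry the tagged protein, whole embryos mix all cell types, and no library without the tag was analysed here. The regions are therefore peak calls, whose occupancy has not been shown by other means.

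When a Wnt ligand is received, β-catenin is spared from degradation, accumulates and enters the nucleus, where it turns TCF/LEF factors already sitting on DNA from repressors into activators. In the Xenopus gastrula, zygotic Wnt signals act through β-catenin in the patterning of ventral and lateral mesoderm and of the posterior neural plate, after an earlier maternal phase that sets up the dorsal side. Developmental genes are often served by several enhancers spread over long stretches of the chromosome, and X. laevis carries such loci in duplicate on L and S chromosomes, the subgenomes of an ancient hybrid.

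Each peak carries a score from the authors' caller whose scale no header names. A score was therefore read only within its own list, as a percentile: the share of that list's peaks with a score at or below it, so that the best peak stands at 100. The 3 MACS lists held 10351 to 40056 peaks and the 3 HOMER lists 4218 to 10317. Sequencing depth is unknown, because peak lists carry no read totals. Positions follow the deposited coordinates. Each printed start is the deposited start moved to the next base, so that the printed start and end are both inside the region. Their genome build is not given in these sources, so no gene or DNA sequence was attached to any region. Nothing in the labels ties the replicates to separate clutches, and their spread may be technical.

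Most isolated regions stood far from the next common region. The gap to the nearest one had a median of 1.28 Mb, with quartiles of 0.408 and 2.76 Mb, and 261 of the 458 (57.0%) had none within 1 Mb. A single 500 bp interval made up 406 of them, and 52 (11.4%) were built from several overlapping intervals, against 24 of the 259 clustered regions (9.27%). The widest gap, 15.1 Mb, belonged to a region on chromosome 5L at 104127680 to 104128179. That region had MACS scores of 712, 940 and 178 in replicates 1, 2 and 3, and HOMER scores of 51, 87 and 21, with a mean percentile over the 6 lists of 96.7. The next widest gaps were 12.9 Mb, at 120424237 to 120424736 on chromosome 3S, and 12.1 Mb, at 94115853 to 94116429 on chromosome 9_10L. Their mean percentiles were 68.2 and 93.8, so remoteness came with both high and middling scores. The 3S region lay close to the last peak of its chromosome, at 120.5 Mb, so its gap could be measured on 1 side only. Across the 458 regions, Spearman's rho between gap and score lay between -0.10 and -0.04 in the 6 lists, a description over regions that share libraries.

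The limit of 50000 bp cut through a continuous range of gaps. Just inside it, a pair on chromosome 4L, at 9064426 to 9064925 and 9115523 to 9116022, stood 50597 bp apart, and a region on chromosome 5L at 122798400 to 122798899 had a gap of 50815 bp. Just outside it, a clustered pair on chromosome 3L, at 131368521 to 131369020 and 131418816 to 131419389, stood 49795 bp apart, and a region on chromosome 1S at 54941724 to 54942223 had a gap of 48217 bp. The mean percentiles of the 3 regions just inside were 87.7, 95.2 and 96.2, and those just outside 84.3, 68.5 and 87.2. Of the 458 isolated regions, 61 had a gap of no more than 100000 bp.

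The highest-scoring isolated region, by mean percentile over the 6 lists, lay on chromosome 1L at 158721425 to 158721924. Its MACS scores were 986, 1660 and 654 in replicates 1, 2 and 3, and its HOMER scores 100, 147 and 48, which placed it 12th, 21st and 113th in the MACS lists and 20th, 8th and 13th in the HOMER lists. It was high in every library, and 27 other peaks of the 6 lists were centred within 50 kb of it. The next, on chromosome 1S at 1824115 to 1824614, had MACS scores of 430, 1895 and 818 and HOMER scores of 146, 153 and 58 in replicates 1, 2 and 3. By MACS it ranked lower in replicate 1 (135th) than in replicate 2 (13th) or 3 (69th). The third lay on chromosome 1S at 131139536 to 131140035, with MACS scores of 514, 1234 and 514, HOMER scores of 71, 116 and 46, and 31 other peaks around it.

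The fourth region, on chromosome 9_10S at 59567214 to 59567713, had MACS scores of 852, 1146 and 437 in replicates 1, 2 and 3 and stood 2556584 bp from the next common region. The fifth, on 1S at 16874036 to 16874535, had MACS scores of 997, 1957 and 731, the highest MACS score among isolated regions in replicate 1. Its HOMER scores of 55, 102 and 34 ranked it 253rd, 72nd and 51st, so the callers placed it differently in replicate 1. The sixth, on 1L at 35407162 to 35407661, had only 2 other peaks within 50 kb, both from MACS lists. The remaining 4 of the 10, with mean percentiles of 98.8 to 99.1, spanned bases 124362651 to 124363150 of 7L, 18525031 to 18525530 of 1L, 9192101 to 9192600 of 2L and 17644012 to 17644511 of 5S. Of the 10, 3 were on chromosome 1L and 3 on 1S.

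At the other end, an isolated region on chromosome 5S at 27876065 to 27876564 had the lowest mean percentile, 51.8. Its MACS scores were 75.6, 60.6 and 53.4 in replicates 1, 2 and 3, and its HOMER scores 25, 23 and 17. It stood 5077th of the 10351 peaks of the replicate 1 MACS list, near its middle, and 35595th of 40056 in replicate 3. The next lowest were on chromosome 6S at 86340423 to 86340922 (53.3) and on chromosome 2L at 155000469 to 155000968 (54.0). The 2L region reached the 83.6th percentile of the replicate 1 MACS list and the 17.2th of the replicate 2 list.

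Some regions were strong in 2 MACS lists and barely called in the third. On chromosome 9_10L at 27147878 to 27148377 the MACS scores were 686, 618 and 50.1 in replicates 1, 2 and 3, or the 99.7th, 98.6th and 0.369th percentiles. On 4L at 104159062 to 104159561 they were 329, 940 and 50.4, and on 6S at 55132207 to 55132706 they were 334, 581 and 50.03. In all 3 the low value was that of replicate 3. The replicate 3 MACS list held the lowest of the 6 percentiles for 294 of the 458 isolated regions (64.2%) and for 153 of the 259 clustered ones (59.1%). That list was also the longest, with 40056 peaks, and the part its length had in these values was not tested.

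In all 6 lists, isolated regions had a lower median score percentile than clustered ones. In MACS replicates 1, 2 and 3, the median percentile of isolated regions was 91.4, 96.9 and 73.6, against 94.5, 98.2 and 84.3 for clustered regions. In the HOMER lists it was 91.3, 93.5 and 88.1, against 93.4, 95.6 and 91.4. In scores, isolated regions had MACS medians of 217, 419 and 90.3 and HOMER medians of 40, 57 and 18, against MACS medians of 265, 551 and 117 and HOMER medians of 44, 65 and 20 in clustered regions. The distributions overlapped widely in every list. The difference of median percentiles, isolated minus clustered, averaged -5.02 ± 4.99 for MACS and -2.49 ± 0.69 for HOMER (SD, n = 3 replicates), and was negative in 3 of 3 replicates for both. An exact 2-sided sign-flip permutation test over the 3 replicates gave p = 0.25 for each caller, which is the smallest value that 3 replicates allow, so the difference cannot pass a threshold of 0.05. The MACS mean rested largely on replicate 3, where the difference was -10.7. With replicate 3 left out of the mean, for the same regions, the MACS mean was -2.19.

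**Figure D1:**
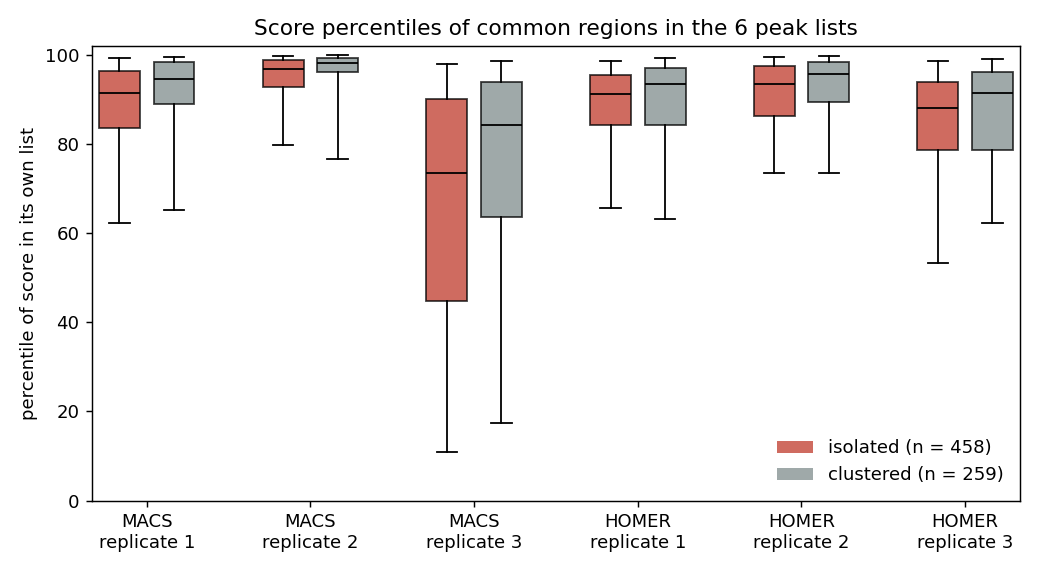
Score percentiles (y axis, 0 to 100, 100 being the best peak of the list) of isolated (red) and clustered (grey) common regions in the 3 MACS and 3 HOMER lists. Boxes span the quartiles with the median as a line and whiskers reach the 5th and 95th percentiles of the regions. The isolated median is the lower one in each list, and the replicate 3 MACS list has the widest spread, with isolated quartiles of 44.8 and 90.1.

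Peaks above the 90th percentile of their list were frequent among isolated regions. They numbered 253, 391 and 115 of 458 in MACS replicates 1, 2 and 3, where 10% of all peaks of each list lie that high, and 253, 302 and 179 in the HOMER lists, where 10.1%, 10.5% and 10.4% do. Because membership required a call in all 6 lists, nothing is read from that excess. In all 6 lists at once, 70 isolated regions (15.3%) lay above the 90th percentile, against 62 clustered regions (23.9%). In none of the lists did 42 isolated regions (9.17%), against 13 clustered ones (5.02%). A percentile below 50 in at least 1 list was found for 152 isolated regions (33.2%) and 52 clustered ones (20.1%). Most of these came from the replicate 3 MACS list, where 132 isolated and 43 clustered regions lay below 50. In each other list 4 to 18 isolated and 1 to 6 clustered regions did. The MACS peaks at isolated regions had median widths of 578, 651 and 254 bp in replicates 1, 2 and 3, against 646, 687 and 357 bp at clustered regions. Width and score went together, with a Spearman's rho over isolated regions of 0.564, 0.799 and 0.865.

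Rank correlations between replicates were lower across isolated than across clustered regions. Across isolated regions, Spearman's rho of MACS scores was 0.538 for replicates 1 with 2, 0.293 for 1 with 3 and 0.494 for 2 with 3, against 0.647, 0.533 and 0.614 across clustered regions. HOMER scores gave 0.614, 0.514 and 0.598 for the same pairings, against 0.706, 0.627 and 0.721. The comparison covers all 6 coefficients and is given with no test, since regions are not independent. Within a replicate, MACS and HOMER scores of isolated regions gave rho of 0.669, 0.861 and 0.626 in replicates 1, 2 and 3, values that rest on the same reads. The median range of the MACS percentile over the 3 replicates was 23.0 for isolated and 14.6 for clustered regions.

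Isolation did not mean an empty neighbourhood. Peaks that were in at least 1 list but overlapped no common region crowded around isolated regions. At least 1 such peak of some list was centred within 50 kb of 453 of the 458. The share of tiles with a peak of any list is not given, so nothing is read from that count. In MACS replicates 1, 2 and 3, 74.2% (340 of 458), 85.4% (391) and 74.0% (339) of isolated regions had such a peak of that list, where 23.3%, 51.1% and 67.7% of 100 kb tiles of the chromosomes hold one. In the HOMER lists the shares were 71.6% (328), 72.9% (334) and 49.8% (228), against 20.4%, 22.8% and 10.1% of tiles. For replicate 3 MACS peaks the share among isolated regions (95% Wilson interval 69.8 to 77.8) was thus little above its tile background. A median of 9 other peaks of all 6 lists lay within 50 kb of an isolated region, and 16 lay within 50 kb of a clustered one, where neighbouring regions share peaks. Neither median has a background count beside it.

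The density of other peaks was highest within 10 kb of isolated regions and declined further out. Within 50 kb it reached 18.1, 25.7 and 17.7 peaks per Mb in MACS replicates 1, 2 and 3, against 3.48, 9.45 and 14.2 per Mb over the chromosomes, or 5.19-fold, 2.72-fold and 1.25-fold. For HOMER it reached 15.7, 17.3 and 7.90 per Mb, against 3.06, 3.53 and 1.28, or 5.13-fold, 4.91-fold and 6.20-fold. The HOMER excess was alike in the 3 replicates, at a mean log2 of 2.43 ± 0.18, whereas the MACS excess spread from replicate 1 to replicate 3, at 1.38 ± 1.03 (SD, n = 3; 3 of 3 replicates above 0 for both). The exact 2-sided sign-flip test over replicates gave p = 0.25 for each, again the smallest possible. With replicate 1 left out of the mean, for the same regions, the MACS mean was 0.88.

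Between 1 and 5 kb from the region edge, the excess around isolated regions was 13.0-fold, 6.10-fold and 1.68-fold for MACS and 10.1-fold, 7.72-fold and 14.3-fold for HOMER in replicates 1, 2 and 3. Between 25 and 50 kb it was 3.42-fold, 1.83-fold and 1.09-fold for MACS and 3.72-fold, 3.53-fold and 3.46-fold for HOMER. It did not end at the 50 kb limit. Between 50 and 100 kb the fold was 2.51, 1.54 and 1.07 for MACS and 2.61, 2.404 and 2.84 for HOMER, and between 250 and 500 kb it lay between 1.08 and 1.23 in all 6 lists. Within the first 1 kb the HOMER fold was lower than between 1 and 5 kb, at 5.70, 2.78 and 9.42. The MACS fold there was 7.22, 6.12 and 1.85, lower only in replicate 1. Peaks that overlap a common region were left out, which depletes the first 1 kb by construction, to an extent that was not measured.

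Clustered regions had a higher density of other peaks in every list, but their flanks overlap, so that each peak there was counted for 2.22 to 2.45 regions on average, against 1.03 to 1.04 for isolated regions. Within 50 kb, their excess was 10.6-fold, 4.56-fold and 1.80-fold for MACS and 8.46-fold, 7.24-fold and 13.0-fold for HOMER. On the log2 scale, isolated minus clustered averaged -0.77 ± 0.26 for MACS and -0.78 ± 0.26 for HOMER (SD, n = 3; exact sign-flip permutation p = 0.25 each). Peaks overlapping common regions were left out around both. The rule still places another common region, with its own surrounding peaks, within 50 kb of each clustered region and bars one near each isolated region. The difference and its test are therefore not independent of the rule, and nothing is read from its direction. How much of it comes with the rule was not measured. With each peak and base counted once, a count added after the data were seen, the excess was 5.09-fold, 2.68-fold and 1.23-fold for MACS and 5.01-fold, 4.81-fold and 6.09-fold for HOMER around isolated regions, against 9.19-fold, 3.96-fold and 1.52-fold and 7.84-fold, 6.59-fold and 10.9-fold around clustered regions. Isolated minus clustered was then -0.57 ± 0.28 for MACS and -0.65 ± 0.19 for HOMER on the log2 scale (SD, n = 3, exact sign-flip permutation p = 0.25 each). That count leaves the limit set by the rule in place. Between 250 and 500 kb the fold around clustered regions was 0.945 to 1.18.

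**Figure D2:**
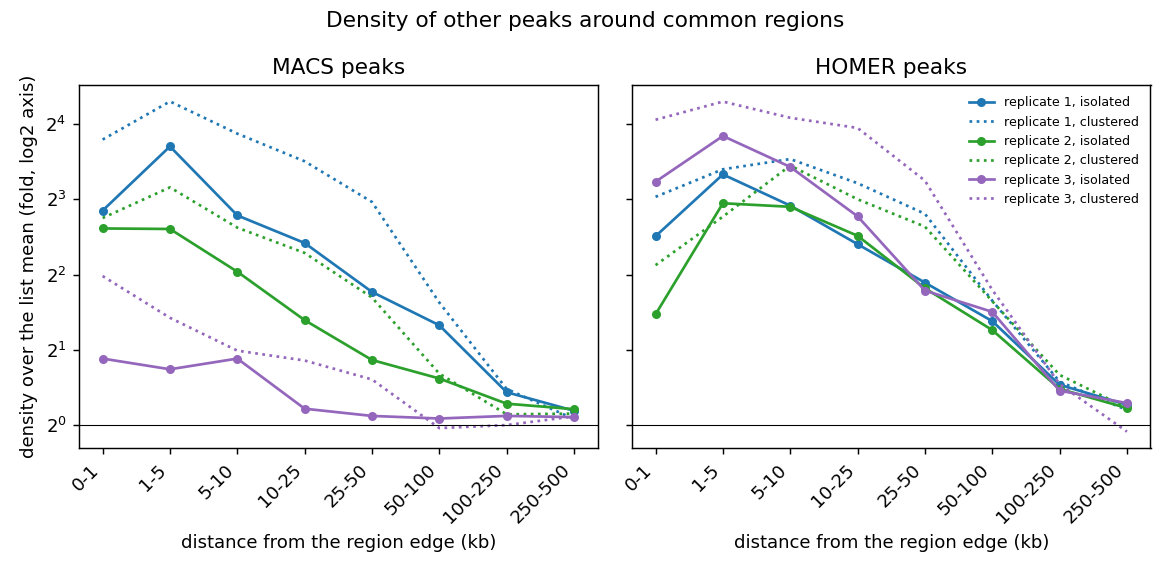
Density of other peaks around common regions as a fold over the mean density of the same list on the chromosomes (y axis, log2 scale), by distance from the region edge in kb (x axis), for MACS (left) and HOMER (right). Solid lines are isolated and dotted lines clustered regions, with 1 colour per replicate. The isolated curves of the 3 HOMER lists fall towards 1 beyond 100 kb, while that of the replicate 3 MACS list stays below 2 throughout.

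Many isolated regions had a neighbouring stretch shared by several lists. Of the 458, 384 (83.8%) had within 50 kb a stretch called in at least 2 of the 6 lists, and 235 (51.3%) one called in at least 4. For 134 (29.3%, 95% Wilson interval 25.3 to 33.6) a stretch was called in 5, so that a single further call would have ended their isolation. The share of other chromosome positions with such a stretch is not given. MACS and HOMER lists of 1 replicate also rest on the same reads, so how far these shares exceed a background cannot be told. Among clustered regions, stretches outside common regions called in 5 lists lay within 50 kb of 150 of 259 (57.9%, 51.8 to 63.8), and neighbouring clustered regions can share such a stretch. By best neighbour in 1 to 5 lists, the median mean percentile of isolated regions was 84.7, 84.1, 87.1, 86.4 and 88.6, with no steady rise. For clustered regions the values were 93.5, 93.8, 85.3, 88.7 and 91.7.

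**Figure D3:**
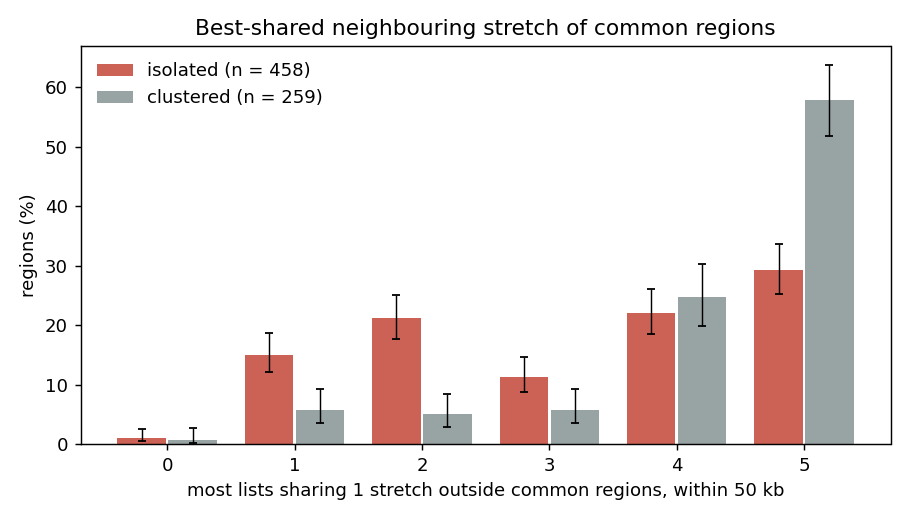
Share of isolated (red, n = 458) and clustered (grey, n = 259) common regions (y axis, percent) by the number of lists that share the best-shared stretch outside common regions within 50 kb (x axis, 0 to 5 lists). Error bars are 95% Wilson intervals, which cover counting error only. A 5-list stretch was near 29.3% of isolated and 57.9% of clustered regions.

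Taking overlapping peaks of all lists as 1 locus, 2257 loci outside common regions lay within 50 kb of an isolated region and no nearer to a clustered one. Of these, 36.3% (95% Wilson interval 34.3 to 38.3) were called in at least 2 replicates and 11.1% (9.89 to 12.5) in all 3. For the 56883 loci more than 50 kb from any common region the shares were 24.0% (23.6 to 24.3) and 3.58% (3.43 to 3.74). Both callers called 32.7% (30.8 to 34.7) of the loci near isolated regions in the same replicate, against 10.1% (9.86 to 10.4) elsewhere. Near clustered regions 18.2% (15.7 to 21.0) of 829 loci were called in all 3 replicates. Intervals cover counting error only, and neighbouring loci are not independent. Loci near isolated regions and elsewhere also differ in their mix of lists. Within 50 kb the excess was 1.25-fold for replicate 3 MACS peaks, the longest list, and 6.20-fold for replicate 3 HOMER peaks, the shortest. The part of that mix in these shares was not tested, so they are not read as better agreement. The other peaks near isolated regions had median percentiles of 64.1, 62.2 and 50.5 in MACS replicates 1, 2 and 3 and 65.7, 67.8 and 53.4 in the HOMER lists. Between 250 and 500 kb the medians were 50.6, 50.1 and 49.5 for MACS and 49.3, 51.6 and 53.4 for HOMER, so replicate 3 hardly differed. Within 50 kb of clustered regions they were higher in every list, at 69.5, 74.8 and 52.3 for MACS and 70.9, 76.3 and 62.4 for HOMER.

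The most crowded isolated region lay on chromosome 7L at 119972955 to 119973454, with 49 other peaks within 50 kb. Of these, 7, 16 and 9 were MACS peaks of replicates 1, 2 and 3, and 6, 8 and 3 were HOMER peaks. It stood 52739 bp from the next common region. A region on 8L at 2174813 to 2175312 had 46 other peaks, of which 12, 12 and 7 were MACS and 3, 7 and 5 HOMER peaks. It lay 833093 bp from the next common region, so a crowded neighbourhood was not limited to regions near the 50000 bp limit. The third, on 7S at 85809436 to 85809935, had 43. All 3 lay above the 90th percentile of all 3 MACS lists.

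At the opposite extreme, 5 isolated regions had no other peak of any list centred within 50 kb. They are named here after their values were seen. They spanned bases 24748285 to 24748784 of chromosome 1L, 40528991 to 40529546 of 2L, 49356048 to 49356547 of 3S, 43036626 to 43037125 of 9_10L and 43623998 to 43624497 of 9_10S. Their scores ran from weak to strong. The 2L region had MACS scores of 67.5, 120 and 52.5 in replicates 1, 2 and 3, whereas the 3S region had 216, 609 and 281 and was above the 90th percentile in all 6 lists. The 9_10S region had MACS scores of 408, 963 and 578 but HOMER scores of 29, 37 and 15.

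On the L and S chromosomes there were 265 and 193 isolated regions, or 0.194 per Mb on L and 0.169 per Mb on S, with the length of a chromosome read from the last peak on it. The L share was 57.9% (95% Wilson interval 53.3 to 62.3), where L chromosomes make up 54.6% of the summed length. Over the 9 pairs the log2 ratio of L to S density averaged 0.15 ± 0.36 (SD over pairs), with L denser in 5 pairs. L was denser in pair 1, with 57 regions on 1L against 31 on 1S, in pair 2, with 26 against 15, and in pair 7, with 33 against 16. Numbers were equal in pairs 3, 8 and 9_10, at 18, 26 and 24 on each copy, which made the shorter S chromosome the denser one. Clustered regions had a mean log2 ratio of -0.14 ± 0.61, and the order of the pairs was not the same. In pair 1 the ratio was 0.59 for isolated and -0.70 for clustered regions, and in pair 9_10 it was -0.17 and 0.56. Chromosome pairs are not samples, and no test was made.

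**Figure D4:**
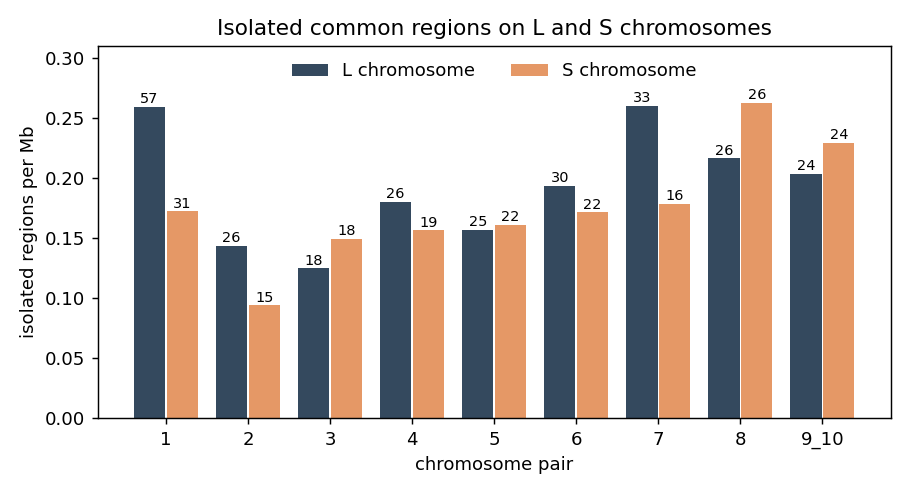
Isolated common regions per Mb (y axis) on the L (dark) and S (orange) chromosome of each of the 9 pairs (x axis), with the number of regions above each bar. The L bar is the taller one in pairs 1, 2, 4, 6 and 7.

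Scores of isolated regions were close on the L and S chromosomes. The median percentile on L chromosomes was 92.4, 96.9 and 75.01 in MACS replicates 1, 2 and 3, against 89.9, 96.9 and 72.7 on S chromosomes. For HOMER it was 91.8, 93.5 and 88.1, against 90.5, 93.8 and 85.8. L minus S averaged 1.61 ± 1.35 for MACS and 1.09 ± 1.30 for HOMER (SD, n = 3), with exact sign-flip permutation p = 0.25 and 0.50. The excess of other HOMER peaks within 50 kb, each measured against its own subgenome, was 4.81-fold, 4.43-fold and 5.36-fold on L and 5.57-fold, 5.61-fold and 7.49-fold on S in replicates 1, 2 and 3. The corresponding MACS values were 4.98-fold, 2.82-fold and 1.21-fold on L and 5.46-fold, 2.61-fold and 1.32-fold on S.

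The share of common regions that were isolated ranged from 41.9% to 86.7% between chromosomes, and no test was made of that spread. On chromosome 4L it was 26 of 30 (86.7%, 95% Wilson interval 70.3 to 94.7) and on 1L 57 of 69 (82.6%, 72.0 to 89.8). On 3L it was 18 of 43 (41.9%, 28.4 to 56.7) and on 9_10L 24 of 49 (49.0%, 35.6 to 62.5). The density of isolated regions was highest on 8S, 7L and 1L, at 0.263, 0.260 and 0.259 per Mb, and lowest on 2S, at 0.0939 per Mb. Isolated regions were found on all 18 chromosomes, from 15 on 2S to 57 on 1L.

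Along the chromosomes, isolated regions were spread throughout. Chromosomes were cut into 10 equal sections. The first section by coordinate held 13.97% of them (64 of 458), and each of the others held 8.30% to 11.8%. The outermost sections of both ends together held 107, or 23.4% (95% Wilson interval 19.7 to 27.4), against 21.6% (17.0 to 27.0) of clustered regions. Of all chromosomal peaks in MACS replicates 1, 2 and 3, 21.7%, 33.6% and 34.1% lay there, and of those in the HOMER lists 21.0%, 20.9% and 18.9%. Neither isolated nor clustered regions shared the pile-up at both ends seen in MACS replicates 2 and 3, where the last section held 16.4% and 16.8% of peaks. That section held 9.39% of isolated and 7.72% of clustered regions, and 7.84% to 9.58% of peaks in the other lists. Membership also requires a call in those other lists, so nothing is read from the lack of a pile-up. Clustered regions had a second maximum in the eighth section, with 13.9%, against 8.73% of isolated regions, and a minimum of 6.18% in the fourth, against 10.5%.

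**Figure D5:**
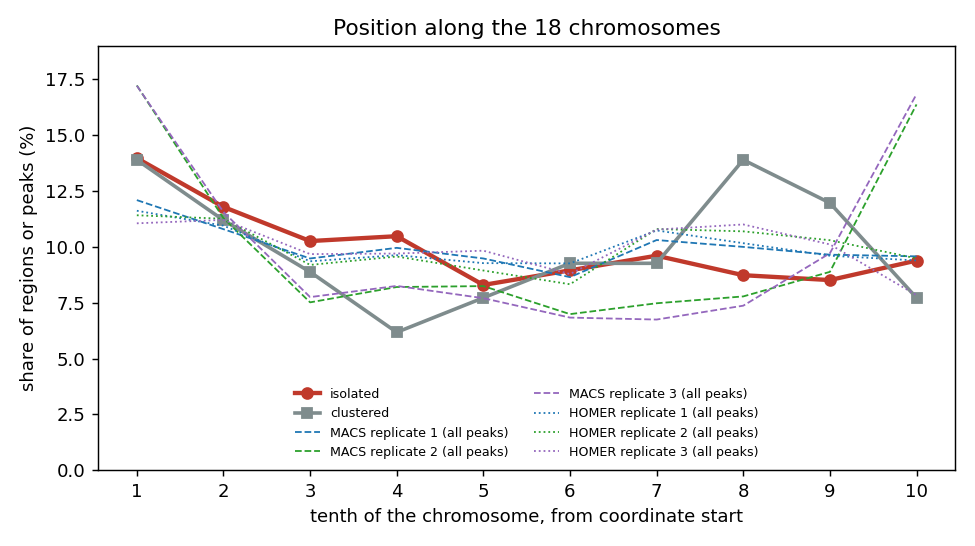
Share (y axis, percent) of isolated regions (red), clustered regions (grey) and all chromosomal peaks of each MACS (dashed) and HOMER (dotted) list in each of 10 equal sections of the chromosome (x axis, from the start of the coordinates), summed over the 18 chromosomes. Isolated regions range from 8.30% to 13.97%, and MACS replicates 2 and 3 rise above 16% in the first and last section.

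L and S copies were set against each other by relative position, the one measure of partnership that needs no genome sequence, given that paired chromosomes are largely collinear. Of the 265 isolated regions on L chromosomes, 118 (44.5%, 95% Wilson interval 38.7 to 50.5) had a common region of either class on the partner S chromosome within 1% of chromosome length. Without replicate 3, when common regions numbered 2439, that share was 79.3%, against 73.4% on S chromosomes of other pairs. With all replicates, the share on S chromosomes of other pairs was 40.0%, and between 27.6% and 54.8% for the single chromosomes. Of the 193 isolated regions on S chromosomes, 98 (50.8%, 43.8 to 57.7) had one on the partner L chromosome, against 43.8% on the L chromosomes of other pairs, with single chromosomes from 33.9% to 65.4%. Both partner shares were above the pooled share of other pairs and within the range of the single chromosomes. A share pooled over all pairs is unlike a share on 1 chromosome, and chromosomes held differing numbers of common regions. That range therefore cannot decide whether partners differ from other chromosomes, and no test was made. With a window of 0.2%, or 0.179 to 0.440 Mb, the partner shares were 13.96% (10.3 to 18.7) from L to S and 18.1% (13.3 to 24.2) from S to L, against 9.20% and 11.9% on other chromosomes, whose single values reached 16.3% and 23.5%. With a window of 2% the partner shares were 66.4% from L to S and 74.6% from S to L, against 65.6% and 70.1% on other chromosomes.

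The closest pair by relative position was on chromosome 6L at 31403598 to 31404097 and on 6S at 25969953 to 25970452. These regions stood 20.25% and 20.26% along their chromosomes, a difference of 0.0103% of chromosome length. The 6L region had MACS scores of 156, 465 and 56.5 in replicates 1, 2 and 3, against 153, 847 and 182 for the 6S region, so by MACS the S member was the higher one in replicates 2 and 3. The HOMER scores were 33, 63 and 22 on 6L, against 45, 103 and 27 on 6S, higher on S in each replicate. The pair at 89.2% of chromosome 3 lay on 3L at 128682315 to 128682814 and on 3S at 107528672 to 107529171, with MACS scores of 307, 476 and 137 on 3L, against 200, 218 and 58.3 on 3S. The pair at 10.8% of chromosome 4 lay on 4L at 15606121 to 15606716 and on 4S at 13116045 to 13116544, with MACS scores of 296, 856 and 149 on 4L, against 152, 420 and 60.3 on 4S. In these 2 pairs the L member had the higher MACS score in every replicate. By HOMER the 3L region had 44, 71 and 22, against 51, 43 and 12 for the 3S region, so replicate 1 ran the other way. The 4L region had HOMER scores of 66, 118 and 37, against 40, 59 and 15 for the 4S region. Whether the members of a pair are homeologous sequences was not tested. How close the nearest regions of unpaired chromosomes come was not measured, so nothing is read from the closeness of these pairs.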

How the data were processed

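Values came from the deposited peak lists of 3 ChIP libraries: a MACS and a HOMER list per replicate, each paired with 1 input by its name, and 1 combined list. The submitters' processing notes name MACS, HOMER, Bowtie2, SAMtools and bedtools. Versions, settings and genome build are not given in the sources. The score beside each peak is the authors' own deposited value, used only to describe and rank peaks within a list. Scaffolds were left out. Overlap meant at least 1 shared bp. A region took its best overlapping peak in each list. Other peaks overlapped no common region and were counted by their centre. Densities used the farthest peak end in any list as chromosome length (2508 Mb over 18 chromosomes). The members, lists and comparisons were chosen with earlier results of these data known. Named regions are the 10 best and 3 worst by mean percentile, and the top 3 by gap, by nearness to the 50000 bp limit on either side, by MACS percentile range, by other peaks and by nearness of L and S positions. Alternatives changed the gap, the flank and the window, kept the better 50% of each list, required centres within 200 bp, counted 5-list neighbours, counted each peak once or left out a replicate. Tests were exact sign-flip permutation tests over the 3 replicates. A gene table of another assembly was not applied. Columns with per-sample values that were not used numbered 0. The tools were pandas 2.3.3, numpy 2.4.6, scipy 1.17.1 and matplotlib 3.10.9 under Python 3.11.15. The division into isolated and clustered regions was checked with bedtools 2.31.1 and differed in 0 regions. On simulated lists with 432 regions, 0 planted isolated regions were missed and planted densities of other peaks were recovered to within 7.07%. Those lists had evenly scattered background peaks of a known density. The counting was thus checked, but not the division by the mean density of an uneven list.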

Additional observations from a re-analysis of the deposited data

How the results depend on the processing

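Of 101 recomputed values, 84 stayed within the limit set for their kind, 17 moved and 0 reversed. The limit was a factor of 1.5 for a count, the same direction for a mean over replicates, 1 SD over replicates or pairs for other differences, and the 95% interval for a share. The 3 replicates of a caller had the same sign in each difference, so a mean with a replicate left out could not reverse. For single MACS lists the limit was wide, at 4.99 percentile points and a log2 of 1.03. The tally is therefore no measure of how firm the results are. A window of 0.2%, the removal of 1 MACS list and counting each peak once were added after seeing the data. Leaving out a replicate gave 482 to 1265 isolated regions in place of 458. Without replicate 3, which gave 1265, 268 of the 458 were still isolated and 190 had gained a neighbour. Without the replicate 3 MACS list alone there were 820. Counting stretches called in 5 of 6 lists as neighbours gave 324, gaps of 25 and 100 kb gave 514 and 397, and the better 50% of each list gave 330. Percentile differences of isolated against clustered regions were -4.09, -4.03 and -5.54 in the better 50% of the HOMER lists of replicates 1, 2 and 3. Percentiles were ranked anew within each shortened list, which widens such differences by construction, so these values do not show a larger difference among better peaks. In replicate 3 HOMER with a gap of 25 kb the difference was -1.54. Means of the percentile differences ran from -6.89 to -2.19 for MACS and -2.70 to -2.09 for HOMER with a replicate left out of the mean. The regions in those means were still the ones called in all 3 replicates. The log2 excess of other peaks in the HOMER lists of replicates 1, 2 and 3 was 3.07, 2.83 and 3.59 within 10 kb, and 2.83, 2.86 and 2.96 in the better 50% of each list. With a replicate left out of the mean, for unchanged regions, the mean excess ran from 0.88 to 1.91 for MACS and from 2.33 to 2.49 for HOMER. With a replicate left out and the regions rebuilt, the L to S ratio ran from 0.18 to 0.35. The outer share then ran from 21.6% to 22.8%. The L to S partner share was 13.96%, 27.5% and 66.4% with windows of 0.2%, 0.5% and 2%, a rise by construction. The shares on other chromosomes were 9.20%, 22.3% and 65.6%, so at 2% the 2 were nearly alike. With a replicate left out and the regions rebuilt, the partner share was 45% to 79.3%, against 41.7% to 73.4% on other chromosomes. The cause of the other moves was not tested. Depth is unknown, so what weaker neighbours deeper libraries would add cannot be told. No paired analysis was possible because each input enters only inside the peak calls.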
